A study of Homo sapiens with 6 samples.

Results

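The 40 cell cycle and proliferation genes described here were read in kidney organoids, small tissues with nephron and stromal cells that form in culture from stem cells. Members were found by gene symbol, older synonyms included, among the probes of a human oligonucleotide array, and the probes of a gene were averaged. Of the 40 members, 39 had a usable probe and were tested, out of 16363 genes tested and 17445 on the array. The remaining one, CDK1, is described separately because its only probe was marked as not good on 1 array.

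All organoids were made from the established human embryonic stem cell line H9. Every group carries a change in PKHD1, whose mutations cause autosomal recessive polycystic kidney disease. The PKHD1-/- organoids came from clone C51 and the PKHD1+/- organoids from clone C9, so each genotype is 1 clone, and clone and genotype cannot be told apart. Each genotype was grown in 3 cultures and harvested on day 35. The forskolin organoids of both genotypes received 20 µM forskolin, which activates adenylyl cyclase and raises cyclic AMP, from day 14. For them no label mentions a matrix. The flow organoids lay on a gelatin and fibrin matrix from day 14, with medium moving at 4.27 ml/min from day 15. The static organoids lay on the same kind of matrix without flow. Each of these 6 groups has 1 array, and no label speaks of replicate cultures.

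A dividing cell passes through G1, S phase, G2 and mitosis, driven by cyclins that bind cyclin-dependent kinases (CDKs). E2F transcription factors switch on the genes of DNA replication before S phase, and a later group of genes, for spindle, kinetochore and chromosome condensation, is switched on in G2 through CCAAT boxes and a promoter element called the cell cycle genes homology region. CDKN1A encodes p21, an inhibitor of CDKs that p53 induces and that holds cells out of the cycle, and cyclic AMP is known to slow or speed division depending on the cell type.

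Some facts on the arrays bear on all that follows. The median probe lay 16.5 and 21.2 intensity units above the blank spots on the PKHD1-/- and PKHD1+/- forskolin arrays, and 33.6 to 58.3 units above them on the other 4. The 2 forskolin arrays were also scanned apart from the others, per the file names, so forskolin and scan cannot be told apart. Across genes, the PKHD1-/- flow array correlated more closely with the PKHD1+/- static array (r = 0.977) than with the PKHD1-/- static array (r = 0.971). Likewise the PKHD1+/- flow array lay closer to the PKHD1-/- static array (r = 0.981) than to the PKHD1+/- static array (r = 0.9745). Whether the labels of these arrays are in the right order was not tested, and the flow values are therefore also given per genotype. The average of the PKHD1 probes read much the same in both genotypes, with a fitted difference of -0.03 ± 0.07 for the gene, PKHD1-/- minus PKHD1+/-. Single probes differed more, and in both directions. Probe 1 read 6.55 and 6.92 on the PKHD1-/- and PKHD1+/- static arrays, and probe 2 read 8.69 and 8.46 on the forskolin arrays. Where these probes lie relative to the change in the gene is not known here, so they do not check the labels. All 8 podocyte genes and all 7 nephron progenitor genes on the array were above background on all 6 arrays. So were 7 of 8 proximal tubule genes and 7 of 9 distal nephron genes. The same held for 14738 of the 17445 genes on the array, and for 17 of 18 neural and 13 of 15 cartilage genes. These counts therefore do not identify the tissue.

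Promoter sequences are shown first because the members differ in which cell cycle elements they carry. RefSeq windows of 300 bases (GRCh38.p14, 250 bases before the transcript start and 50 after it) were at hand for 30 members, in 39 windows. Members without an entry are AURKA, TPX2, MCM4, CCND2, CDK2, BIRC5, CCND1, FOXM1, MCM5 and CCNE2. The motifs searched, on both strands, were TTTGAA for the cell cycle genes homology region, CCAAT for the CCAAT box, and TTTCGCGC, TTTGGCGC, TTTCCCGC and TTTGCCGC counted as 1 motif for E2F. The 5 windows below are those of TOP2A (chr17:40417847-40418146, minus strand), CDK1 (chr10:60778228-60778527, plus strand), MAD2L1 (chr4:120066799-120067098, minus strand), MCM3 (chr6:52284693-52284992, minus strand) and CDKN1A (chr6:36678464-36678763, plus strand). TOP2A, CDK1, MAD2L1 and CDKN1A were among the members with large culture differences, and MCM3 read nearly alike in the 2 genotypes. Capitals mark a motif on either strand, so that TTCAAA is TTTGAA and ATTGG is CCAAT read on the other strand.
TOP2A: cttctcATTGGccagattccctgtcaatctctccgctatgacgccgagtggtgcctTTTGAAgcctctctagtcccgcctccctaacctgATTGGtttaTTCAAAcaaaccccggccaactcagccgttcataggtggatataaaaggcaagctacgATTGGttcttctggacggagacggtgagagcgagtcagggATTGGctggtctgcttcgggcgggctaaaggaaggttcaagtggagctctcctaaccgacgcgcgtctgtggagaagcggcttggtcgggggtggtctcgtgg
CDK1: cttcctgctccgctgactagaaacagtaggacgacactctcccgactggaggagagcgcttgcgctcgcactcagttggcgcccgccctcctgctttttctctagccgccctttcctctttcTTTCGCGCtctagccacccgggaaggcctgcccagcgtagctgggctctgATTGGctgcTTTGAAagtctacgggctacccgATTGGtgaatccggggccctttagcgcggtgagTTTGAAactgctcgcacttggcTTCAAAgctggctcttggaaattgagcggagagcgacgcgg
MAD2L1: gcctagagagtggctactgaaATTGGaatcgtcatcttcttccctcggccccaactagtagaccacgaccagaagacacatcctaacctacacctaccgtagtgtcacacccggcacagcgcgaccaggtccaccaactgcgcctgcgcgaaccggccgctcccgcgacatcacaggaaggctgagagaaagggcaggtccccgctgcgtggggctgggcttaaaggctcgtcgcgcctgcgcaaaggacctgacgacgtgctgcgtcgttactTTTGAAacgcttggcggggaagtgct
MCM3: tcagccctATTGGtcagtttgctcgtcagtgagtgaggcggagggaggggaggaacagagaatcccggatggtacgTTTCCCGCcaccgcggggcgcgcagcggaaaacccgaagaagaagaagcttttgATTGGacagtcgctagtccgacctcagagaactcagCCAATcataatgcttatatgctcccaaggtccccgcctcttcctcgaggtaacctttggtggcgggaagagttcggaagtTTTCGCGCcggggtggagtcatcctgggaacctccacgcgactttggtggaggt
CDKN1A: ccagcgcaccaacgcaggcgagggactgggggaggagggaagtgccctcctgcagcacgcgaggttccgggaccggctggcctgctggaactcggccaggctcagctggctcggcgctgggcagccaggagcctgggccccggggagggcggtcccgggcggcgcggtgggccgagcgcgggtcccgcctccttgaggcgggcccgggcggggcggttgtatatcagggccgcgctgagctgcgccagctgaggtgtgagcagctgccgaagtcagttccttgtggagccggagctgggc

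TOP2A, MAD2L1 and CDK1 carried TTTGAA, MCM3 carried E2F sites and no TTTGAA, and CDKN1A carried none of the motifs. In TOP2A, TTTGAA began 194 and 151 bases before the start. In CDK1 it began 69 and 13 bases before the start and 10 bases after it, with an E2F site 128 bases before it, and in MAD2L1 it began 25 bases after the start. The E2F sites of MCM3 began 174 and 4 bases before the start. None of these matches overlapped another.

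The same division ran through the members as a whole. TTTGAA was found in 15 of the 39 member windows (38.5%), belonging to 13 genes, against 15.2% of all 35116 RefSeq windows of this length. CCAAT was in 31 windows (79.5%), against 34.6% of all windows, and an E2F site in 12 windows (30.8%) of 11 genes, against 3.31% of all. By role, E2F sites were found in 7 of the 8 replication genes with a window and TTTGAA in 0 of 8. TTTGAA was found in 4 of the 5 genes of entry into mitosis, in 7 of the 11 genes of the spindle, kinetochore and checkpoint, and in both TOP2A and MKI67. A match describes these letters only and is not evidence of a bound factor.

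The levels of all members are given on the log2 scale of normalized intensity, and differences are differences of log2 values. They serve to compare arrays for 1 gene and not genes with each other. Of the 39 members tested, 38 lay above background on all 6 arrays, where background is the trimmed mean of the blank spots plus 2 trimmed SD. The exception was MKI67, which encodes the proliferation marker Ki-67. It read 5.83 and 5.91 on the PKHD1-/- and PKHD1+/- forskolin arrays, 5.73 and 5.80 on the flow arrays and 5.69 and 5.73 on the static arrays. It lay above background on the 2 forskolin arrays and on PKHD1+/- flow, and not above it on the other 3, so no fold change is given for it.

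**Figure D1:**
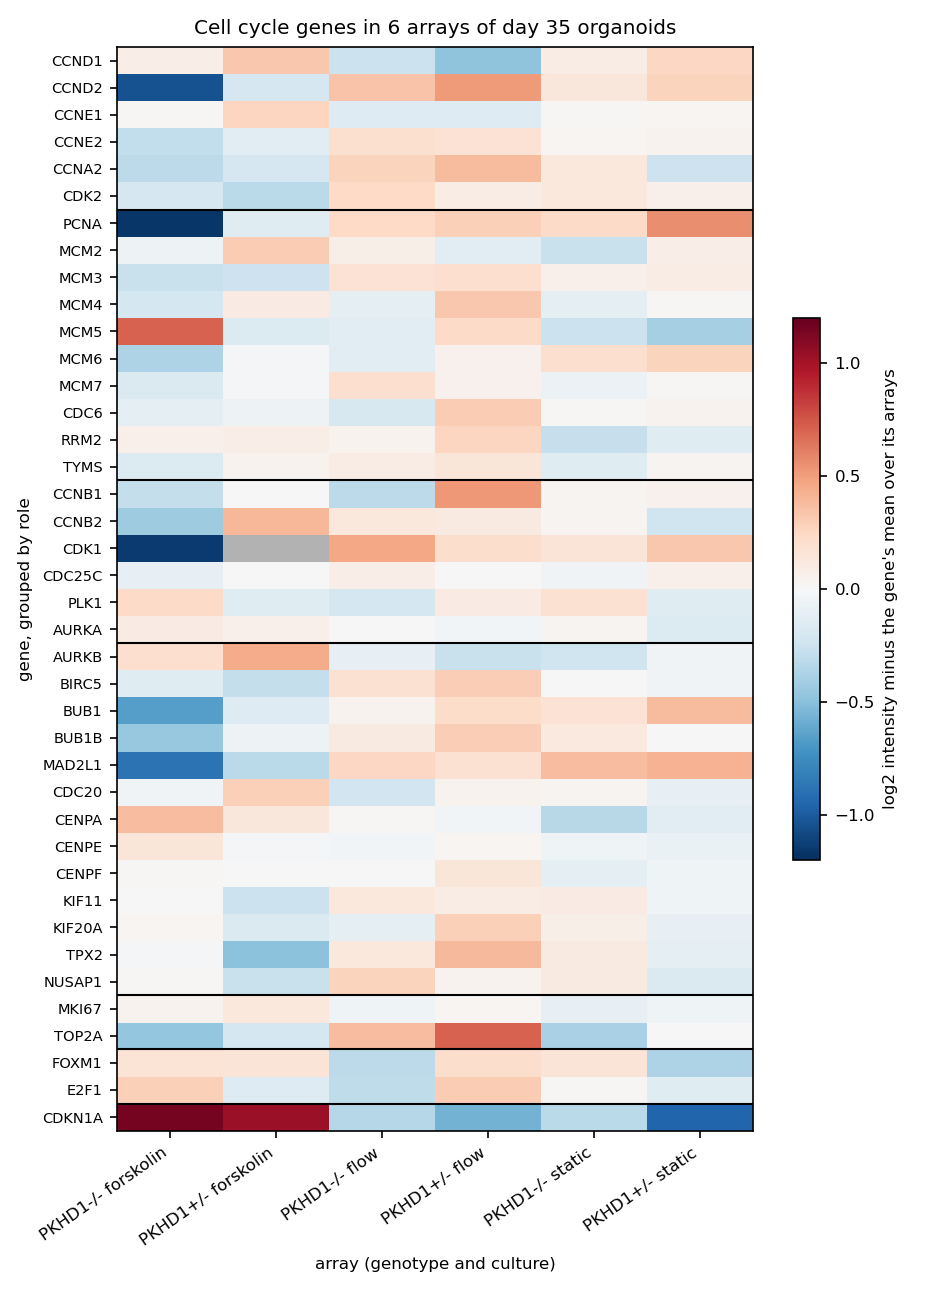
Normalized log2 intensity of each member on the 6 arrays (columns, by culture and genotype), shown as the difference from the gene's own mean over its arrays (colour scale, log2), with genes grouped by role from cyclins at the top to CDKN1A at the bottom. Grey marks the CDK1 spot marked as not good. CDKN1A is highest on the 2 forskolin arrays, at 10.15 and 10.04, where PCNA, CCND2 and MAD2L1 have their lowest values.

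Comparing forskolin with static culture asks which members differed between these cultures. Forskolin cannot be told apart here from the separate scan, or from a difference in matrix, since no forskolin label mentions one. CDKN1A, the p21 gene, had the largest difference of the members, 3.33-fold higher on the forskolin arrays, while PCNA, MAD2L1, CCND2 and BUB1 had lower values there in both genotypes. In bulk organoids, fewer cells of a type and less RNA per cell cannot be told apart. By limma's moderated test with Benjamini-Hochberg adjustment over all genes, 0 of the 39 members passed the threshold of 0.05, where 1.12% of all genes tested did. With an unadjusted p under 0.05, 4 members were higher and 8 lower, against a share of 23.2% of all genes in either direction. Limma with a variance trend and robust prior called 3 members, BUB1, MKI67 and CDKN1A (7.69%), against 7.28% of all genes. Scaling mattered here. Quantile normalization gave 125 genes called higher and 59 lower over the array, while scaling each array to its 75th percentile gave 5894 and 862 and moved the median of all genes to 0.309. Under that scaling 9 members (23.1%) were called, against 41.3% of all genes, and the difference of TOP2A, given below, turned to 0.03.

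CDKN1A read 10.15 and 10.04 on the PKHD1-/- and PKHD1+/- forskolin arrays, 8.66 and 8.43 on the flow arrays and 8.67 and 8.05 on the static arrays. The forskolin arrays stood above all 4 others in both genotypes. The fitted difference, forskolin minus static, was 1.73 ± 0.15 on the log2 scale (moderated SE, 2 pairs), with a limma adjusted p of 0.0509. Within the genotypes the difference was 1.48 for PKHD1-/- and 1.99 for PKHD1+/-. The call depended on the processing, since 5 of 13 alternatives put the adjusted p under the threshold, with a lowest value of 0.0113. These were the 75th percentile scaling, no background correction, the value table, the filter on all 6 arrays, and trend and robust prior. The fits that left out 1 array called no gene of the whole array, so they could not call CDKN1A.

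Among the G1 and S phase cyclins and CDK2, 2 of 6 members had a positive difference and 4 a negative one, with a median of -0.22. CCND2 encodes cyclin D2, which drives G1. It read 9.73 and 10.58 on the PKHD1-/- and PKHD1+/- forskolin arrays, 11.12 and 11.29 on the flow arrays and 10.92 and 11.05 on the static arrays. Both forskolin arrays lay below the other 4, and the PKHD1-/- one lay lowest. The fitted difference was -0.82 ± 0.22 (limma adjusted p 0.159). CDK2, the partner of cyclins E and A, was lower by similar amounts in both genotypes, -0.33 in PKHD1-/- and -0.39 in PKHD1+/-, for a fitted -0.36 ± 0.06 (limma adjusted p 0.0907). CCND1, the gene of cyclin D1, had differences of -0.01 and 0.07 in PKHD1-/- and PKHD1+/-.

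Among the 10 DNA replication members, 3 had a positive difference and 7 a negative one, with a median of -0.04. PCNA encodes the sliding clamp of the replication fork. It read 9.07 and 10.10 on the PKHD1-/- and PKHD1+/- forskolin arrays, 10.49 and 10.53 on the flow arrays and 10.47 and 10.80 on the static arrays. The forskolin values were the 2 lowest, but they were also 1.03 apart from each other. The fitted difference was -1.05 ± 0.28 (limma adjusted p 0.155).

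The MCM2 to MCM7 proteins form the helicase that opens DNA, and their genes differed in sign. MCM3 read 7.45 and 7.47 on the PKHD1-/- and PKHD1+/- forskolin arrays, 7.89 and 7.92 on the flow arrays and 7.78 and 7.81 on the static arrays. The genotypes were nearly equal in every culture, and the fitted difference from static was -0.33 ± 0.06 (limma adjusted p 0.0920). MCM6 had a fitted difference of -0.43 ± 0.09 (limma adjusted p 0.119), negative in both genotypes.

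MCM5 had a positive difference. It read 8.85 and 7.98 on the PKHD1-/- and PKHD1+/- forskolin arrays, 8.01 and 8.38 on the flow arrays and 7.89 and 7.75 on the static arrays. The high value was that of the PKHD1-/- forskolin array, and the PKHD1+/- forskolin array lay within the range of the others. The fitted difference was 0.60 ± 0.33 (limma adjusted p 0.389). RRM2, a subunit of ribonucleotide reductase, had a fitted difference of 0.28 ± 0.08 from 2 probes, and of 0.55 ± 0.08 from the probe listed as RRM2 alone, without one listed as C2orf48.

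Among the 13 genes of the spindle, kinetochore and checkpoint, 5 had a positive difference and 8 a negative one, with a median of -0.09. MAD2L1 encodes MAD2, which holds the anaphase-promoting complex in check until chromosomes are attached. It read 7.48 and 8.04 on the PKHD1-/- and PKHD1+/- forskolin arrays, 8.61 and 8.55 on the flow arrays and 8.73 and 8.79 on the static arrays. Both forskolin arrays lay below the other 4, whose range was narrow. The fitted difference was -1.0 ± 0.19, 0.50-fold (limma adjusted p 0.101). BUB1, a checkpoint kinase, read 6.04 and 6.55 on the PKHD1-/- and PKHD1+/- forskolin arrays, 6.75 and 6.93 on the flow arrays and 6.88 and 7.08 on the static arrays. Its forskolin values were also the 2 lowest, with a fitted difference of -0.68 ± 0.11 (limma adjusted p 0.0905). On the PKHD1-/- forskolin array its spot, at 51.1 units, lay close to the blank mean of 44.4, so the size is uncertain. Over 13 alternatives the difference ranged between -1.72, from the authors' value table, and -0.37, with 75th percentile scaling, and 2 of them called BUB1.

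CENPA and AURKB had higher values with forskolin. CENPA, the histone H3 variant of centromeres, read 8.43 and 8.19 on the PKHD1-/- and PKHD1+/- forskolin arrays, 8.07 and 8.02 on the flow arrays and 7.72 and 7.92 on the static arrays. The forskolin arrays lay above the others, and the fitted difference was 0.49 ± 0.13 (limma adjusted p 0.155). AURKB, a kinase of the chromosomal passenger complex, had a fitted difference of 0.46 ± 0.13 (limma adjusted p 0.170). BIRC5, which encodes survivin of the same complex, had -0.19 ± 0.09 (limma adjusted p 0.314).

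CDK1 is the kinase that starts mitosis with cyclin B. Its value on the PKHD1+/- forskolin array was left out because that spot was marked, and the other 5 arrays were fitted. It read 7.53 on the PKHD1-/- forskolin array, 9.13 and 8.88 on the PKHD1-/- and PKHD1+/- flow arrays and 8.83 and 8.99 on the static arrays. The PKHD1-/- forskolin array was the lowest by more than 1 log2 unit. Over the 16472 genes of that fit, the difference was -1.40 ± 0.21 (limma adjusted p 0.116, 5 arrays). Its forskolin value is a single array assumed to vary like the other groups, whose spread the error takes. This alternative was chosen after the marked spot was seen. The 5 other genes of entry into mitosis had differences from -0.19 to 0.15.

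TOP2A encodes topoisomerase II alpha, which untangles chromosomes. It read 6.93 and 7.18 on the PKHD1-/- and PKHD1+/- forskolin arrays, 7.76 and 8.11 on the flow arrays and 7.0 and 7.39 on the static arrays. The forskolin and static values overlapped, and the flow values lay above both. Forskolin minus static was -0.14 ± 0.07 (limma adjusted p 0.335). The transcription factor genes FOXM1 and E2F1 had differences of 0.27 ± 0.28 and 0.13 ± 0.29.

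Taking the 39 members as a list, 12 (30.8%) were higher and 19 (48.7%) lower in both genotypes, against 37% and 35.1% of all genes. The median difference of the members was -0.06, against 0.0028 over all genes tested. It was 0.02 under the 75th percentile scaling, where that of all genes was 0.309, and 0.05 without the PKHD1-/- static array. Markers of other cell types differed as well. The summed intensity of the 20 muscle genes on the array, of 22 listed, was 105890 and 97319 units on the PKHD1-/- and PKHD1+/- forskolin arrays, against 7641 and 1870 on the static arrays. All 20 muscle genes had a positive difference, with a median of 3.51, and none of them was below background on every array. Limma called 9 of these 20, against 1.12% of all genes. CDKN1A is itself known to be switched on in differentiating muscle, and the part of muscle cells in the cell cycle values was not tested. Kidney stroma markers had 9 of 12 genes negative, with a median of -0.46 and 0 called by limma. With an unadjusted p under 0.05, 1 was higher and 6 lower (58.3%, against 23.2% of all genes). The stroma markers' summed intensity was 18166 and 18273 units on the PKHD1-/- and PKHD1+/- forskolin arrays, against 29352 and 21464 on the static arrays. Of the 10 endothelial genes tested, 6 were positive and 4 negative, with a median of 0.03, and limma called 1 lower. Podocyte genes were positive for 6 of 8, with a median of 0.16 and 0 called. The part of stromal, endothelial and podocyte cells was not tested either.

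**Figure D2:**
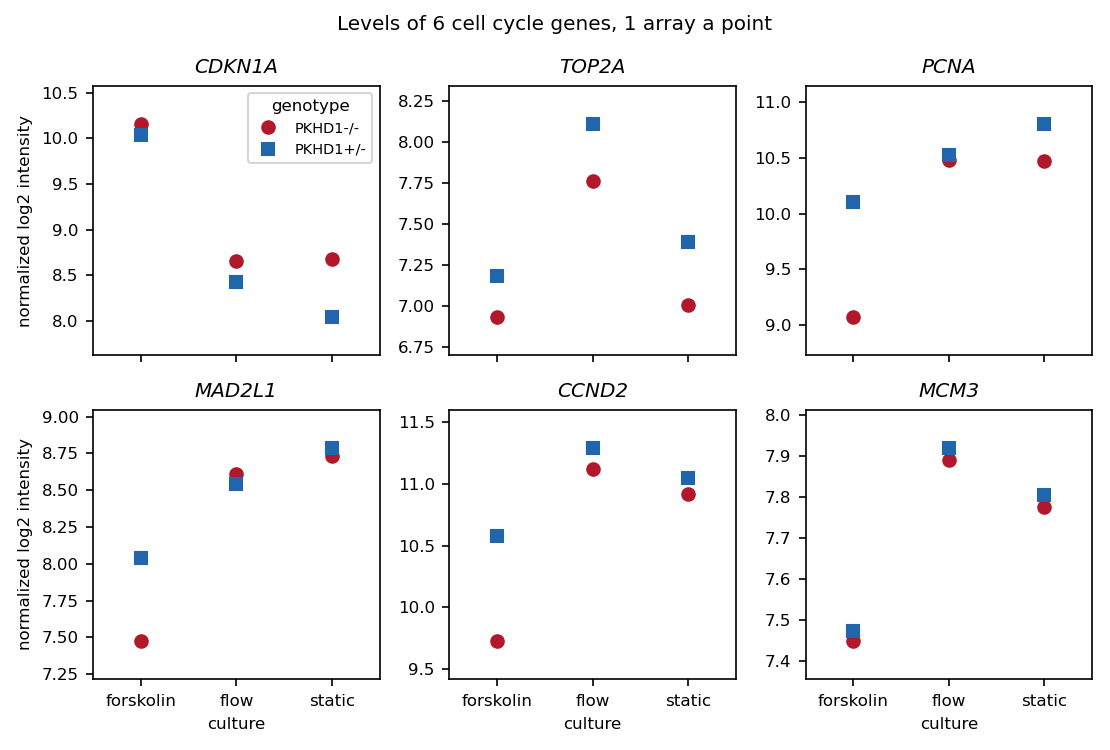
Normalized log2 intensity (vertical axes, each with its own range that does not start at 0) of 6 members by culture, with a red circle for the PKHD1-/- array and a blue square for the PKHD1+/- array. CDKN1A is highest with forskolin (10.15 and 10.04), TOP2A is highest under flow (7.76 and 8.11), and PCNA, MAD2L1, CCND2 and MCM3 are lowest with forskolin.

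Setting forskolin against flow compares both stimulated cultures. Forskolin, flow, the separate scan and any difference in matrix cannot be told apart in it. The comparison shares the forskolin arrays with the one above, so it is no independent support for that one. Cyclin A, the E-type cyclin CCNE2, CDK2 and a set of spindle genes had lower values with forskolin, and CDKN1A again had the largest positive difference. Of the 39 members, 0 passed limma's adjusted threshold, where 0.0428% of all genes did. With an unadjusted p under 0.05, 4 members were higher and 13 lower, against 25% of all genes in either direction, and limma with trend and robust prior called CCNE2, TOP2A and CDKN1A (7.69%), against 8.39% of all genes.

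CDKN1A had a fitted difference of 1.55 ± 0.15, forskolin minus flow (limma adjusted p 0.0620), with 1.49 in PKHD1-/- and 1.61 in PKHD1+/-. TOP2A was lower by nearly the same amount in both genotypes, at -0.83 in PKHD1-/- and -0.93 in PKHD1+/-. Its fitted difference was -0.88 ± 0.07 (limma adjusted p 0.0577), and -1.64 from the authors' value table (limma adjusted p 0.0494). Within each genotype the flow array read highest.

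The 6 G1 and S phase members all had an unadjusted p under 0.05 here, 4 lower and 2 higher. CCND2 had -1.05 ± 0.22 (limma adjusted p 0.110). CCNA2, the gene of cyclin A2, read 7.55 and 7.66 on the PKHD1-/- and PKHD1+/- forskolin arrays, 8.14 and 8.25 on the flow arrays and 7.99 and 7.61 on the static arrays. Forskolin lay below flow by equal amounts in both genotypes, with a fitted -0.58 ± 0.16 (limma adjusted p 0.150), and overlapped with static.

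The 2 higher members were CCNE1, a cyclin E gene, at 0.29 ± 0.09 and CCND1 at 0.57 ± 0.14 (limma adjusted p 0.136). CCND1 read 8.86 and 9.11 on the PKHD1-/- and PKHD1+/- forskolin arrays, 8.53 and 8.31 on the flow arrays and 8.87 and 9.04 on the static arrays. The flow arrays were the low ones, and forskolin and static were alike. D-type cyclin genes therefore had opposite signs in this comparison, with CCND2 lower and CCND1 higher.

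Of the replication members, 2 were positive and 8 negative, with a median of -0.16. PCNA had -0.92 ± 0.28 (limma adjusted p 0.168) and MCM3 -0.45 ± 0.06 (limma adjusted p 0.0730). Of the 13 spindle, kinetochore and checkpoint members, 4 were positive and 9 negative, with a median of -0.24. AURKB read 8.76 and 9.01 on the PKHD1-/- and PKHD1+/- forskolin arrays, 8.46 and 8.29 on the flow arrays and 8.32 and 8.52 on the static arrays. The forskolin arrays were the 2 highest, with a fitted difference of 0.50 ± 0.13 (limma adjusted p 0.141). CDK1 had a fitted -1.50 ± 0.21, forskolin minus flow (limma adjusted p 0.104, 5 arrays).

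Over the list, 8 members (20.5%) were higher and 19 (48.7%) lower in both genotypes, against 37.2% and 32% of all genes. The member median was -0.16, against 0.011 over all genes, and -0.14 against 0.379 with arrays scaled to the 75th percentile, which called 14 members (35.9%) and 50.8% of all genes. Cartilage markers had negative differences for all 15 genes, with a median of -0.65, and neural markers were positive for 9 of 18. Muscle markers were positive for 18 of 20, with a median of 1.69, and podocyte markers for 7 of 8, with a median of 0.61, while proximal tubule markers were negative for all 8, with a median of -0.36. Limma called 0 of these marker genes in this comparison. An unadjusted p under 0.05 was found for 9 of 15 cartilage, 7 of 18 neural and 15 of 20 muscle genes. It was also found for 5 of 8 podocyte and 3 of 8 proximal tubule genes, against 25% of all genes. The part of these markers in the member values was not tested.

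Flow against static asks what moving medium changed on the same matrix. TOP2A had the largest positive difference, and most members had small positive ones, while CCND1 was the lowest. None of the 39 members passed limma's adjusted threshold (0 called), where 0% of all genes did. With an unadjusted p under 0.05, 4 members were higher and 1 lower, against 5.96% of all genes in either direction, and limma with trend and robust prior called 0 members and 0.00611% of all genes.

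TOP2A was higher under flow by 0.76 in PKHD1-/- and 0.72 in PKHD1+/-, so that the flow arrays, at 7.76 and 8.11, did not overlap with the static arrays, at 7.0 and 7.39. The fitted difference was 0.74 ± 0.07, 1.67-fold (limma adjusted p 0.454), and 1.35 from the authors' value table. TOP2A has 2 probes on the array, and both read higher under flow in both genotypes. The fainter one read 6.93 and 7.24 on the PKHD1-/- and PKHD1+/- flow arrays, against 6.03 and 6.54 on the static arrays. The brighter one read 8.59 and 8.98 under flow, against 7.98 and 8.23 in static culture.

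Of the 10 replication members, 8 were positive and 2 negative, with a median of 0.13. RRM2 had 0.36 ± 0.08 (limma adjusted p 0.607), and 0.62 ± 0.08 from the probe listed under that name alone. MCM5 had 0.38 ± 0.33 (limma adjusted p 1.00), from 0.12 in PKHD1-/- and 0.63 in PKHD1+/-. MCM6 went the other way. It read 9.14 and 9.49 on the PKHD1-/- and PKHD1+/- forskolin arrays, 9.38 and 9.56 on the flow arrays and 9.71 and 9.78 on the static arrays. The static arrays were the 2 highest, with a fitted flow difference of -0.27 ± 0.09 (limma adjusted p 0.841).

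Of the 6 cyclins and CDK2, 4 were higher and 2 lower under flow in both genotypes. CCNA2 had 0.39 ± 0.16 (limma adjusted p 0.917) from 0.14 in PKHD1-/- and 0.63 in PKHD1+/-. CCND1 had -0.54 ± 0.14 (limma adjusted p 0.701), from -0.34 in PKHD1-/- and -0.73 in PKHD1+/-.

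Of the spindle, kinetochore and checkpoint members, 9 were positive and 4 negative, with a median of 0.10. BIRC5 had 0.26 ± 0.09 (limma adjusted p 0.818) and NUSAP1, which bundles spindle microtubules, 0.19 ± 0.06 (limma adjusted p 0.775). MAD2L1 had -0.18 ± 0.19 (limma adjusted p 1.00). CDKN1A had 0.19 ± 0.15 (limma adjusted p 1.00), from -0.01 in PKHD1-/- and 0.38 in PKHD1+/-. CDK1 had 0.10 ± 0.15 over its 5 arrays, with opposite signs in the genotypes.

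Over the list, 30 of 39 members were positive, against 45.9% of all genes. In both genotypes together, 20 members (51.3%) were higher and 5 (12.8%) lower, against 21.3% and 24% of all genes. The member median was 0.09, against -0.0081 over all genes. It came to 0.03 in PKHD1-/- and 0.14 in PKHD1+/-. Leaving out the PKHD1+/- flow array gave 24 positive members, and leaving out PKHD1+/- static gave 22.

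Markers of several cell types differed under flow, although 0 of them passed limma's adjusted threshold. An unadjusted p under 0.05 was found for 8 of 15 cartilage, 7 of 18 neural and 14 of 20 muscle genes. Of all genes, 5.96% had one. The 15 cartilage genes were all positive, with a median of 0.58, and their summed intensity was 2529 and 2471 units on the PKHD1-/- and PKHD1+/- flow arrays, against 1130 and 849 on the static arrays. The neural genes, 18 of 20 listed, summed to 3586 and 3386 units under flow, against 1614 and 1462 in static culture, and the muscle genes to 37369 and 22122 units, against 7641 and 1870. Proximal tubule genes were positive for 7 of 8, with a median of 0.36. By the fitted difference, 8 of 10 endothelial genes were negative (median -0.27), and 5 had an unadjusted p under 0.05. Also negative were 8 of 12 stromal genes (median -0.15) and 6 of 8 podocyte genes (median -0.15). In PKHD1-/- and PKHD1+/- the endothelial median was -0.32 and -0.12, and the podocyte median -0.05 and -0.32. The stromal median differed in sign, at -0.28 in PKHD1-/- and 0.06 in PKHD1+/-. None of these lists held a gene below background on every array. Their part in the member values was not tested.

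**Figure D3:**
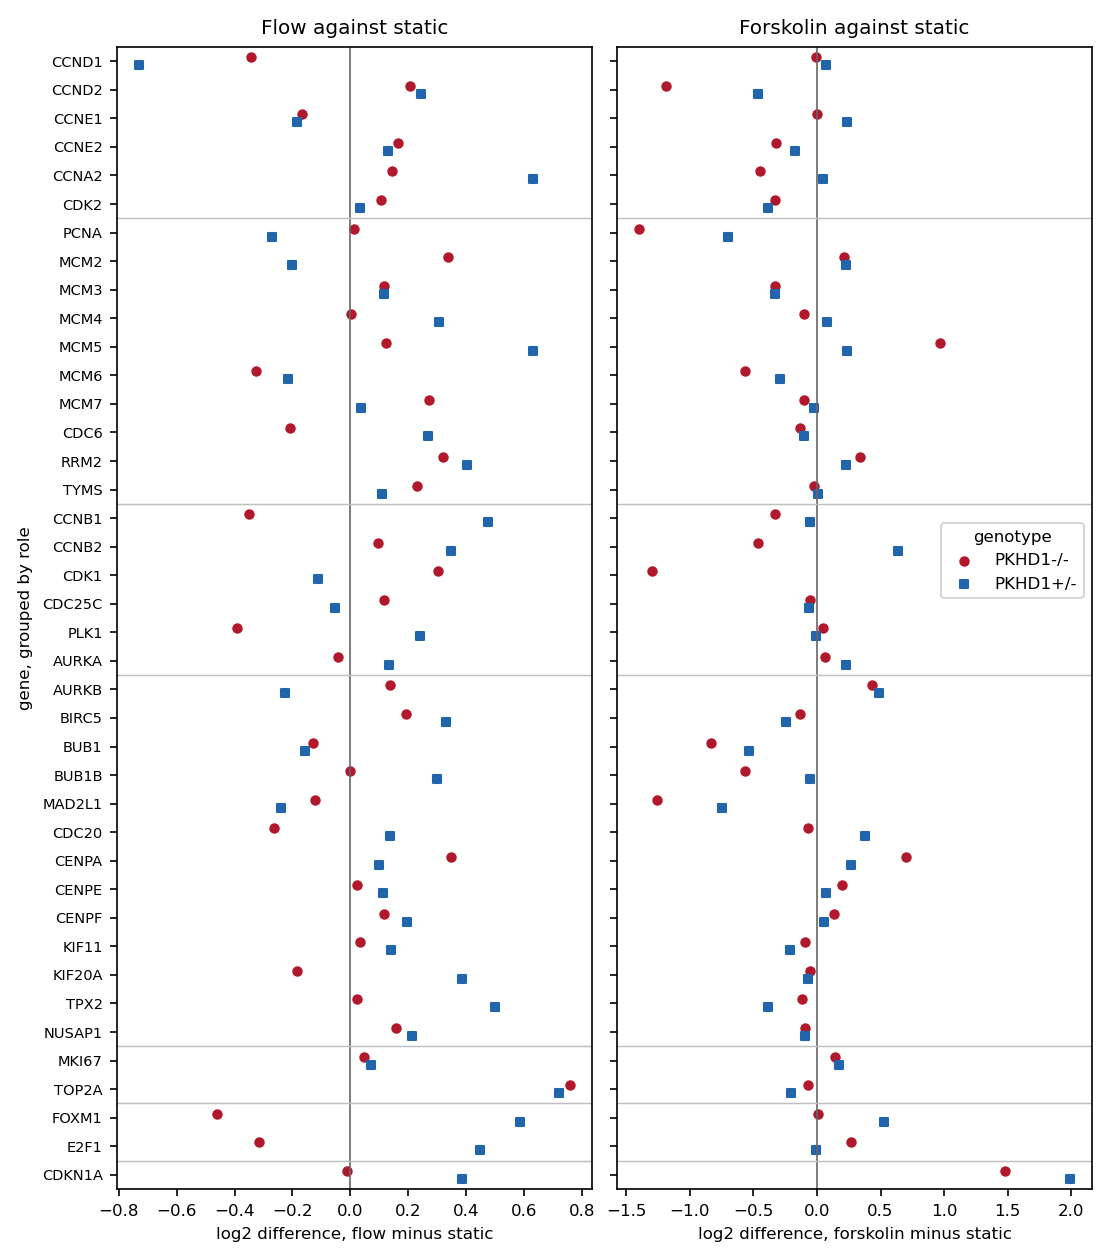
Differences of each member (rows, by role) on the log2 scale within PKHD1-/- (red circles) and PKHD1+/- (blue squares), flow minus static on the left and forskolin minus static on the right, each from 1 array against 1. The horizontal scales differ. TOP2A lies at 0.76 and 0.72 under flow, and CDKN1A at 1.48 and 1.99 with forskolin. CDK1 has no PKHD1+/- point on the right because its spot was marked.

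The genotype comparison sets the 3 PKHD1-/- arrays against the 3 PKHD1+/- arrays, paired by culture, and asks what the second changed copy of PKHD1 altered. TOP2A was lower and NUSAP1 higher in PKHD1-/- in every culture, and 9 of the 10 replication members had small negative differences. None of the 39 members passed limma's adjusted threshold (0 called), where 0% of all genes did, and all members' adjusted p values were 1.00. With an unadjusted p under 0.05, 1 member was higher and 3 lower, against 3.23% of all genes in either direction, and limma with trend and robust prior also called 0 members.

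Of the 10 replication members, 1 had a positive and 9 a negative difference, PKHD1-/- minus PKHD1+/-, and 7 were lower in all 3 cultures. Their median was -0.16, with -0.19 in forskolin, -0.12 in flow and -0.10 in static culture. Differences for PCNA were -1.03 in forskolin, -0.04 in flow and -0.33 in static culture, so that the fitted -0.47 ± 0.23 came mostly from forskolin. MCM4 had -0.31, -0.43 and -0.12 in the same order, with a fitted -0.29 ± 0.08. MCM3, by contrast, had a fitted -0.03 ± 0.05.

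MCM5 was the exception with a fitted 0.22 ± 0.27. Its differences were 0.87 in forskolin, -0.36 in flow and 0.14 in static culture. Without either forskolin array its genotype difference was -0.11.

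Among the genes that act in mitosis, TOP2A, BUB1 and CCNB1 were lower and NUSAP1, KIF11 and AURKA higher in PKHD1-/- in all 3 cultures. BUB1 had -0.51 in forskolin, -0.18 in flow and -0.20 in static culture, for a fitted -0.30 ± 0.09. TOP2A had -0.25 in forskolin, -0.35 in flow and -0.38 in static culture, for a fitted -0.33 ± 0.05, 0.798-fold, and -0.77 from the authors' value table. NUSAP1 read 7.87 and 7.59 on the PKHD1-/- and PKHD1+/- forskolin arrays, 8.12 and 7.89 on the flow arrays and 7.96 and 7.68 on the static arrays. PKHD1-/- was the higher of the pair in every culture, and the fitted difference was 0.26 ± 0.05, although the 2 genotypes' ranges over the cultures overlapped.

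CCNB1, the gene of cyclin B1, read 8.88 and 9.17 on the PKHD1-/- and PKHD1+/- forskolin arrays, 8.86 and 9.69 on the flow arrays and 9.21 and 9.22 on the static arrays. The PKHD1+/- flow array was the high one, and the static arrays were alike, so the fitted -0.38 ± 0.19 came mainly from flow. It has 2 probes that disagree on the PKHD1-/- flow and forskolin arrays: one read 8.26 with forskolin and 9.17 under flow, the other 9.51 and 8.55. CCND2 had -0.38 ± 0.18, with -0.85 in forskolin, -0.17 in flow and -0.13 in static culture. CDKN1A was higher in PKHD1-/- in all 3 cultures, by 0.11, 0.23 and 0.63 in forskolin, flow and static culture, for a fitted 0.32 ± 0.13.

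Over the list, 14 of 39 members were positive. In all 3 cultures 5 members (12.8%) were higher and 13 (33.3%) lower, against 11.7% and 9.11% of all genes. The flow and static arrays, whose order was not tested, enter these counts, and by culture 15 members were positive in forskolin, 14 in flow and 17 in static culture. The member median was -0.06, against -0.00047 over all genes, and by culture it was -0.09 in forskolin, -0.07 in flow and -0.02 in static culture. Muscle genes had a positive difference for 19 of 20 genes, with a median of 0.41 and 0 called by limma. An unadjusted p under 0.05 was found for 6 (30%), against 3.23% of all genes. By culture, however, the median of the muscle genes was 0.02 in forskolin, with 10 of 20 positive, 0.59 in flow and 0.73 in static culture. Their part in the member values was not tested.

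**Figure D4:**
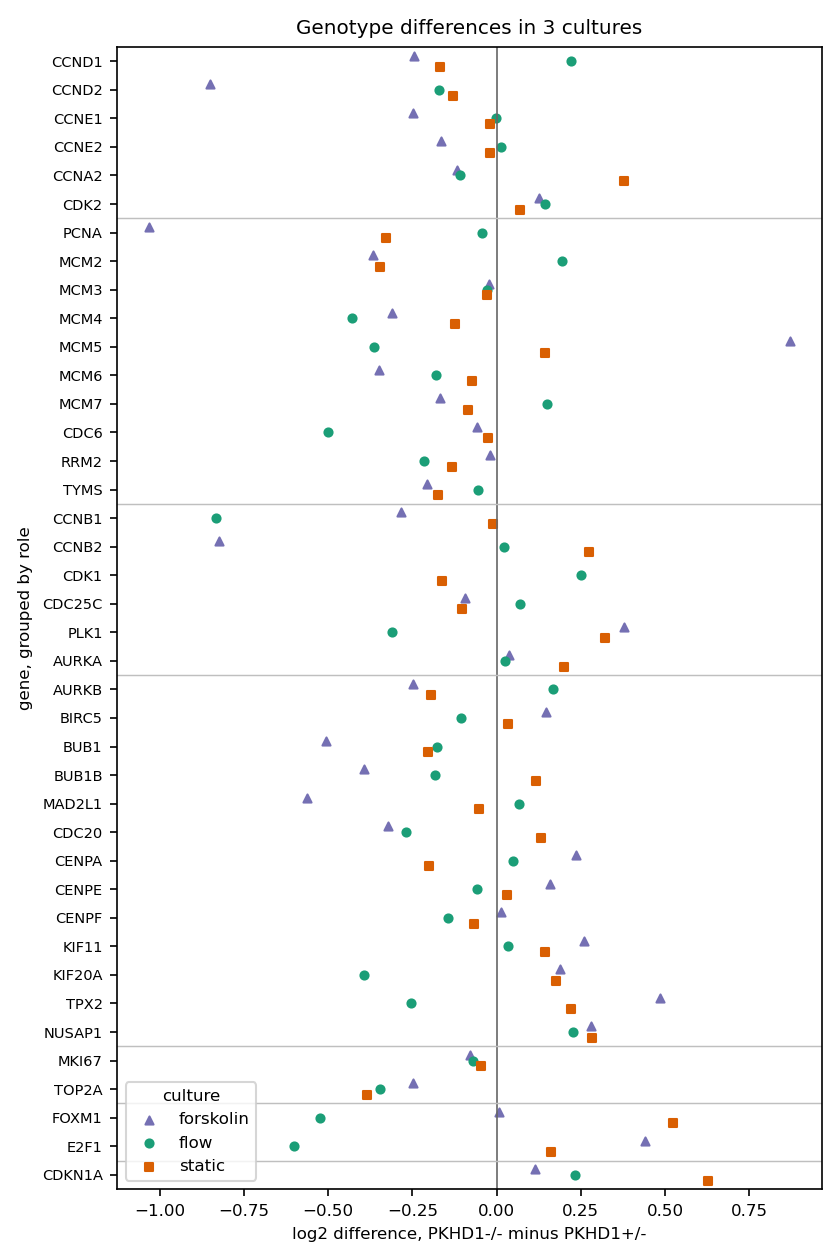
Genotype difference of each member (rows, by role) on the log2 scale, PKHD1-/- minus PKHD1+/-, in forskolin (triangles), flow (circles) and static culture (squares), each from 1 array against 1. TOP2A lies below 0 in all 3 cultures (-0.25, -0.35 and -0.38) and NUSAP1 above 0 (0.28, 0.23 and 0.28), while PCNA and MCM5 lie far out in forskolin, at -1.03 and 0.87.

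The remaining members follow by role. CCNE2, the other cyclin E gene, read 5.94 and 6.11 on the PKHD1-/- and PKHD1+/- forskolin arrays, 6.43 and 6.41 on the flow arrays and 6.26 and 6.28 on the static arrays. Its forskolin arrays were the 2 lowest, and forskolin minus flow was -0.39 ± 0.08 (limma adjusted p 0.0983). The CCNE2 spot on the PKHD1-/- forskolin array, at 49.1 units, lay close to the blank mean of 44.4. Of the replication genes, MCM2, MCM7, CDC6, which loads the helicase, and TYMS, which makes thymidylate, had fitted differences between -0.22 and 0.22 in the 4 comparisons. CCNB2, CDC25C, PLK1 and AURKA, which act at entry into mitosis, had fitted differences between -0.18 and 0.22. The CDC25C spot on the PKHD1-/- forskolin array, at 53.3 units, also lay close to that blank mean. So did the PLK1 spot on the PKHD1-/- flow array, at 53.2 units against a blank mean of 46.0. The sizes for these genes are uncertain.

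Of the spindle and checkpoint genes, BUB1B, CDC20, CENPE, CENPF and the motor and spindle genes KIF11, KIF20A and TPX2 had fitted differences between -0.31 and 0.26, except with forskolin against flow. There TPX2 had -0.51 ± 0.21 (limma adjusted p 0.248) and BUB1B -0.46 ± 0.15 (limma adjusted p 0.184). The CENPF spot on the PKHD1-/- forskolin array, at 49.6 units, lay close to the blank mean of 44.4, so its sizes are uncertain. TPX2, which brings Aurora A to the spindle, read 8.07 and 7.59 on the PKHD1-/- and PKHD1+/- forskolin arrays, 8.21 and 8.47 on the flow arrays and 8.19 and 7.97 on the static arrays. Its low value was that of the PKHD1+/- forskolin array, whereas PCNA, CCND2, MAD2L1 and BUB1 were lowest on the PKHD1-/- forskolin array.

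FOXM1 and E2F1, the transcription factors of the late and the early genes, had opposite signs in the genotypes under flow against static. FOXM1 read 7.18 and 7.17 on the PKHD1-/- and PKHD1+/- forskolin arrays, 6.70 and 7.23 on the flow arrays and 7.16 and 6.64 on the static arrays. E2F1 read 7.21 and 6.77 with forskolin, 6.63 and 7.23 under flow and 6.94 and 6.78 in static culture, in the same order of genotypes. For both genes the PKHD1-/- flow array and the PKHD1+/- static array were among the 3 lowest, and their fitted genotype differences were 0.00 ± 0.23 and 0.00 ± 0.24.

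Grouping the members by promoter motif gave no clear separation of the differences. For forskolin against static, the 12 tested genes with TTTGAA had a median of -0.02 with 6 positive and 6 negative, and the 8 genes with an E2F site and no TTTGAA had -0.09 with 2 positive and 6 negative. The 9 genes with neither motif, CDKN1A among them, had 0.12 with 5 positive and 4 negative. In the same order of groups, the medians were 0.12, 0.07 and 0.07 for flow against static. They were -0.11, -0.17 and -0.08 for forskolin against flow. For genotype they were -0.07, -0.16 and -0.09, with 7 of the 8 E2F genes negative. These are descriptions of groups chosen by motif, with no test.

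Genes of the same processes that are not members were summarised as well. The list of other replication and S phase genes holds 46 genes, of which 44 were tested. Between the genotypes 18 were positive and 26 negative, with a median of -0.02, and 0 passed limma's adjusted threshold or an unadjusted p of 0.05. With arrays scaled to the 75th percentile, 22 were positive and 22 negative (50% positive, against 71.9% of all genes). With forskolin against static, 21 were positive and 23 negative and 0 passed limma's adjusted threshold, while 3 were higher and 7 lower with an unadjusted p under 0.05 (22.7%, against 23.2% of all genes). POLA2, a subunit of the DNA polymerase alpha and primase complex, had 1.18 ± 0.13 (limma adjusted p 0.0581), and DBF4, which activates the kinase CDC7, had -0.74 ± 0.25 (limma adjusted p 0.214). Under flow 24 of 44 were positive, with a median of 0.013, among them UHRF1, a reader of hemimethylated DNA, at 0.67 ± 0.14 (limma adjusted p 0.599). CDC7 itself had -0.57 ± 0.13 under flow (limma adjusted p 0.614). POLA1, the catalytic subunit beside POLA2, had the opposite sign with forskolin against flow, -0.72 ± 0.24 (limma adjusted p 0.197), where POLA2 had 0.86 ± 0.13.

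The list of other mitosis genes holds 62 genes, of which 61 were tested. Under flow 43 of them were positive, with a median of 0.06, where 45.9% of all genes were positive. With arrays scaled to the 75th percentile, 31 (50.8%) were positive, with a median of 0.0022, against 27.7% and -0.11 over all genes. Of the 61, 26 (42.6%) were higher in both genotypes, against 21.3% of all genes. Examples were ZWINT, a kinetochore gene, at 0.63 ± 0.17 (limma adjusted p 0.719) and SMC4, a condensin subunit, at 0.40 ± 0.11 (limma adjusted p 0.741). With forskolin against static, 33 were positive, with a median of 0.02. That scaling gave 47 (77%) positive and a median of 0.25, against 74.8% and 0.309 over all genes. KIFC1, a kinesin, had 0.88 ± 0.12 (limma adjusted p 0.0747) and CKS2, a CDK-binding subunit, -0.76 ± 0.21 (limma adjusted p 0.163). CENPN and CENPW, 2 centromere genes, were higher with forskolin against flow, at 0.93 ± 0.11 (limma adjusted p 0.0728) and 0.63 ± 0.08 (limma adjusted p 0.0761). Limma called 0 of them in each comparison, with 2 (3.28%) under flow and 19 (31.1%) with forskolin against static at an unadjusted p under 0.05, where the shares of all genes were 5.96% and 23.2%.

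Among 11 other CDK inhibitors and G1 regulators, 6 were higher and 5 lower with forskolin in both genotypes, and 0 passed limma's adjusted threshold (5 at an unadjusted p under 0.05, 45.5%, against 23.2% of all genes). CDKN1C, which encodes the CDK inhibitor p57, had 1.39 ± 0.22 (limma adjusted p 0.0872), with 1.04 in PKHD1-/- and 1.73 in PKHD1+/-. CCND3, the third D-type cyclin gene, had 0.88 ± 0.24 (limma adjusted p 0.162). CDKN2B, which encodes the inhibitor p15, was lower in PKHD1-/- in all 3 cultures, with a fitted -0.56 ± 0.17.

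Genes listed here as p53 targets were split in direction with forskolin. Of 25 tested, 12 were positive and 13 negative against static, with a median of -0.04, while 18 (72%) were positive with arrays scaled to the 75th percentile, where 74.8% of all genes were. Limma called 0 of them, with 3 higher and 5 lower at an unadjusted p under 0.05 (32%, against 23.2% of all genes). PLK2 had -1.78 ± 0.21 (limma adjusted p 0.0644) and BTG2, an antiproliferative gene, -0.91 ± 0.19 (limma adjusted p 0.116). CCNG2, the gene of cyclin G2, had 0.88 ± 0.12 under flow against static (limma adjusted p 0.490). SESN1 and GADD45A had fitted genotype differences of 0.58 ± 0.47 and -0.49 ± 0.47, with a sign in flow opposite to that in the other cultures. The list was compared by counts only, and p53 activity was not measured.

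**Figure D5:**
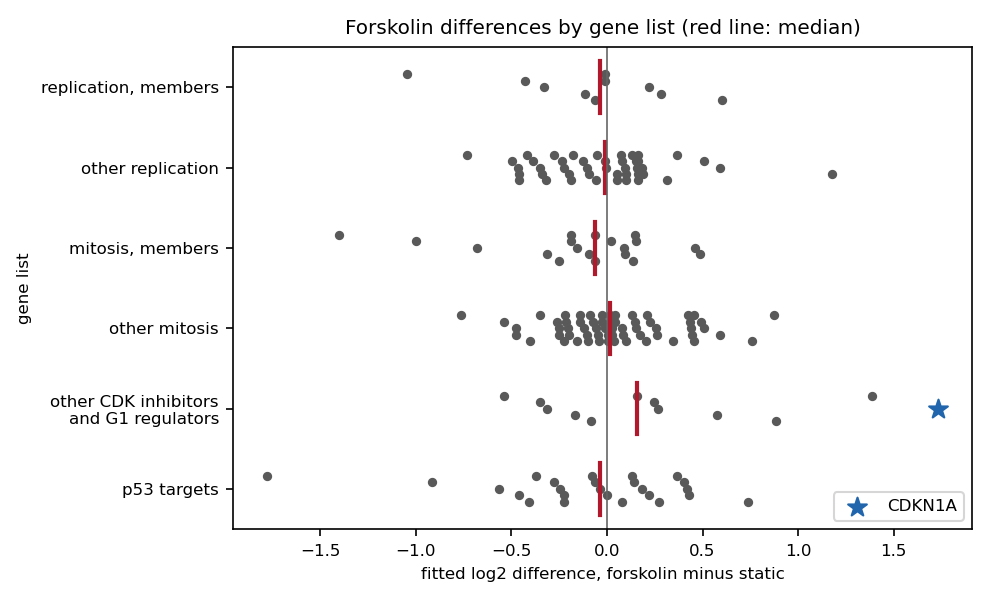
Fitted log2 difference, forskolin minus static (horizontal axis), of each gene (points, spread vertically for visibility) in 6 gene lists, with the list median as a red line. CDKN1A (star), a member, is drawn beside the other CDK inhibitors and lies at 1.73, while with this quantile normalization the median of the p53 targets lies at -0.04.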

How the data were processed

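RNA of 6 kidney organoid groups was hybridised to 1-colour 3D-Gene arrays, 1 array each. The authors deposited scanner files with spot median intensity and a value table, whose deposited intensity values were a straight line of the spot medians that put the blank spots' trimmed mean at 0, with a median of 25 per array, as a comparison of both showed. The scanning and extraction software is not given in the sources used here. Each array held 27456 spots, of which 24460 were probes, 2680 blank and 316 controls, and 205 probes with a not-good mark on 1 or more arrays were removed, CDK1 among them. Probe symbols came from the platform annotation. They were current for 17238 probes, updated through RefSeq for 2899 and for another 44 whose older name several genes share, kept for 55 and absent for 4224.

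Spot medians were corrected with normexp (offset 50), put on the log2 scale, quantile normalized and averaged by gene with limma 3.58.1 in R 4.3.3. Genes above background (blank trimmed mean plus 2 trimmed SD, trimming 5% at each end) on at least 2 of 6 arrays were tested, 16363 in all. One additive model of culture and genotype left 2 residual degrees of freedom, with a prior of 1.54. It takes the 2 genotypes' disagreement within a culture as error, and no group has a spread of its own. Errors written with ± are moderated standard errors over the 6 arrays, and p-values were adjusted by the Benjamini-Hochberg method over all genes with a threshold of 0.05. A summed marker intensity adds each gene's normalized intensity less the offset.

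The 40 members and all gene lists were chosen with earlier results of these data known. Values on every array were given for MKI67, TOP2A and CDKN1A and, per comparison, for the 3 members with the largest difference in each direction among those above background on all 6 arrays, with the same for BUB1, MCM3, CDK1, CCNE2, TPX2, FOXM1 and E2F1, chosen after their values were seen. From the other lists, genes were named from the 2 with the largest difference per comparison. Alternatives were another scaling, no background correction, the value table, 2 filters, the brightest probe, limma with trend and robust prior, and leaving out each array. The number of arrays limits the precision.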

Additional observations from a re-analysis of the deposited data

Results flagged for a closer look

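Some members had opposite signs in the 2 genotypes under the same contrast, each with a size of at least 0.25 on the log2 scale in both. Each value rests on 1 array against 1, and the difference between the genotypes was not tested.

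Under flow against static, CCNB1, the gene of cyclin B1, had -0.35 in PKHD1-/- and 0.47 in PKHD1+/-, a gap of -0.82. FOXM1 had -0.46 in PKHD1-/- and 0.59 in PKHD1+/-, a gap of -1.05. E2F1 had -0.32 in PKHD1-/- and 0.45 in PKHD1+/-, a gap of -0.76. These signs turn on which flow and static array belongs to which genotype, and each flow array correlated more closely with the static array of the other genotype (r = 0.977 and 0.981) than with its own (r = 0.971 and 0.9745). Whether the labels are in the right order was not tested.

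With forskolin against static, CCNB2, the gene of cyclin B2, had -0.46 in PKHD1-/- and 0.64 in PKHD1+/-, a gap of -1.10. With forskolin against flow it had -0.56 in PKHD1-/- and 0.29 in PKHD1+/-, a gap of -0.84, from the same forskolin arrays. In that contrast MCM5 had 0.84 in PKHD1-/- and -0.39 in PKHD1+/-, a gap of 1.23, and E2F1 had 0.59 in PKHD1-/- and -0.46 in PKHD1+/-, a gap of 1.04.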

How the results depend on the processing

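The genotype and flow comparisons called 0 members by limma under every alternative tried. Each fit without 1 array called no gene of the whole array in any comparison, members included, so these fits cannot test the calls. In those fits a group is lost, and its culture or genotype rests on an array assumed to vary like the others. Scaling each array to its 75th percentile called 9 members (23.1%) with forskolin against static, where 41.3% of all genes were called. With forskolin against flow it called 14 (35.9%), where 50.8% of all genes were. Member medians under it were -0.014 for genotype and 0.019 with forskolin against static, against 0.092 and 0.309 over all genes. The value table called CDKN1A against static (1 member) and TOP2A and CDKN1A against flow (2 members), and gave a genotype median of -0.16. No background correction and the filter on all 6 arrays each called CDKN1A against static (1 member). Limma with trend and robust prior called 3 members in each forskolin comparison. The brightest probe gave a forskolin against static median of -0.011, and leaving out 1 array in turn gave -0.12 to 0.049, the lowest without PKHD1+/- static and the highest without PKHD1-/- static.

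Over all genes, forskolin against static called 125 higher and 59 lower, against 5894 and 862 (75th percentile), 322 and 337 (value table), 600 and 592 (trend and robust prior) and 54 and 22 (no filter). Forskolin against flow called 7 higher and 0 lower, against 7407 and 907, 170 and 414, and 594 and 779 under the first 3 of these, and flow against static called 0, against 1 with trend and robust prior. Signs reversed under 75th percentile scaling for several members. MKI67, TOP2A, CDKN1A and the members with the largest differences per comparison were singled out for a tally. Among them, signs reversed for TOP2A (forskolin against static 0.034) and for the values of MKI67 (genotype 0.14, flow against static -0.16). MKI67 is not above background on 3 arrays and has no settled direction. Among the others, CDC25C and CENPF turned positive with forskolin against flow, at 0.38 and 0.55, and limma called both. The median of all genes was 0.379 there. Leaving out 1 array at a time, flow against static ranged from -0.059 (without PKHD1+/- flow) to 0.81 for MCM5, from -0.37 to 0.0065 (without PKHD1+/- flow) for MAD2L1 and from -0.041 (without PKHD1+/- static) to 0.41 for CDKN1A. The MCM5 genotype difference ranged from -0.11, without either forskolin array and also with flow and static arrays alone, to 0.51. The cause was not tested. Of the alternatives for the members singled out, 393 kept their sign and call, 17 gained a call and 9 reversed. This tally does not cover all members. Outside it, E2F1 kept its genotype sign in 6 of 14 alternatives. TYMS kept its sign with forskolin against static in 9 of 13. With 1 array per group and dim forskolin arrays, small differences cannot be resolved.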
